A study of Arabidopsis thaliana with 18 samples.

Results

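The 99 genes described here had moderately higher levels in wild-type Arabidopsis thaliana root tips after 3 h with the peptide TOLS2, and little or no such difference in rlk7-3. They were chosen from the 16722 probe sets that the platform's annotation assigns to exactly 1 gene, out of 38408 probe sets in the table. A probe set was kept when its mean over 18 arrays was at least 5 (log2), its wild-type TOLS2 mean exceeded its control mean by 0.6 to 2.0, all 3 wild-type TOLS2 arrays lay above all 3 controls, and its rlk7-3 difference was below 0.25. Of 107 probe sets that met these limits, 8 were left out because the choice sets their families aside: PUCHI, LBD16, BGLU45, the germin-like gene AT5G39110, and the peroxidase genes AT2G18150, Prx37, AT5G14130 and AT5G64120. The 99 probe sets stand for 99 different genes, and no 2 of them carry equal values.

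The 6 groups are puchi-2, rlk7-3 and wild type, each with TOLS2 at 1 µM and each as a control without the peptide. Each group has 3 arrays that the labels call biological replicates. All were seedlings grown for 5 days, and each array holds RNA pooled from about 80 root tips of 1 cm. The labels name the puchi-2 and rlk7-3 alleles without describing the lesions. Neither the source of the replicates beyond that label nor a second allele of either gene is given in the labels, so each mutant rests on 1 line.

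TOLS2 is a small secreted peptide and RLK7 is a leucine-rich repeat receptor-like kinase through which it is perceived. Together they act in the spacing of lateral roots, the side branches that start from founder cells in the pericycle. PUCHI, a transcription factor of the AP2/ERF class, acts early in the formation of a lateral root and lies downstream of TOLS2 and RLK7. The puchi-2 arrays therefore ask whether the moderate differences are still seen in a line mutated in a transcription factor that is itself a target of the peptide. Among the transcripts that respond to secreted peptides in roots are those for surface receptors, wall proteins, oxidoreductases and enzymes of specialised metabolism, and the 99 genes are ordered by such families.

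Values are log2 expression levels from RMA, the authors' normalization, and a difference of 1 is a 2-fold change. Wild-type and rlk7-3 differences chose the genes, so they are given as descriptions without a test. The difference between puchi-2 TOLS2 and puchi-2 control arrays was not used in the choice, and it was tested with limma over the 17481 probe sets with at least 1 gene (called at a Benjamini-Hochberg adjusted p under 0.05, two-sided). In bulk root tips, a lower signal from fewer cells of a type cannot be told apart from less RNA per cell.

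Arrays of the same group correlated at 0.984 or more over all probe sets. PUCHI itself was at 6.32, 6.27 and 6.15 on puchi-2 TOLS2 arrays and at 5.04, 5.45 and 5.44 on puchi-2 control arrays, against 4.68, 4.15 and 4.85 on wild-type control arrays. On wild-type TOLS2 arrays it was at 6.52, 6.45 and 6.58, all above the puchi-2 TOLS2 arrays. Its puchi-2 signal was thus not below that of wild type among controls, and was slightly below it with TOLS2. As the labels do not describe the lesion, this signal does not check the genotype. With 0 rows named for RLK7, that genotype was not checked either. Of 36 root tissue markers sought by name, 4 had a row here, with mean levels of at least 8.29. The lowest was LBD16, which the choice set aside, and the root hair expansin gene EXPA7 was at 8.96. With 20927 probe sets that carry no gene, a marker without a row may still be on the array. Of 10 shoot markers, RCA alone was measured, at a mean of 7.60, and its difference in puchi-2 was -0.51 (limma adjusted p = 0.117).

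All 99 genes had a higher mean with TOLS2 than in control on the puchi-2 arrays, and for 83 of them all 3 TOLS2 arrays lay above all 3 control arrays. Over all tested probe sets the share with such an order was 7.38%, and over those with a mean of at least 5 it was 8.04%. The median puchi-2 difference of the 99 genes was 0.69 (range 0.12 to 1.68), beside -0.01 over all tested probe sets. Limma called 41 of the 99 genes as higher (41.4%) and 0 as lower, where 0.898% of all tested probe sets were called higher and 0.698% lower. At an unadjusted p under 0.05, 88 were higher, where 5.58% of all tested probe sets were. The remaining 58 genes did not pass, which does not show that they failed to respond.

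The spread behind these calls was shared by all 18 arrays, and the choice of genes used the wild-type arrays, favouring genes whose wild-type replicates lie close together. Of the 99 genes, 5 reached the minimum mean level of 5 only through arrays on which they were high, since their mean over the 9 control arrays was under 5. They were AT4G11000, AT1G11330, AT3G07540, AT3G47540 and AT5G44575, and the first 3 were among those called. Over the other 94 genes, 38 were called higher and 79 had all 3 puchi-2 TOLS2 arrays above all 3 controls, with a median difference of 0.69. From the 6 puchi-2 arrays alone, which the choice of genes did not use except in the mean level, limma called 12 of the 99 genes as higher, where 0.212% of all tested probe sets were called. All 12 were among the 41. Without puchi-2 control replicate 1 the count was 24 of 99, where 0.44% of all tested probe sets were called higher, and 23 of the 41 calls held without each of the 6 puchi-2 arrays in turn.

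**Figure D1:**
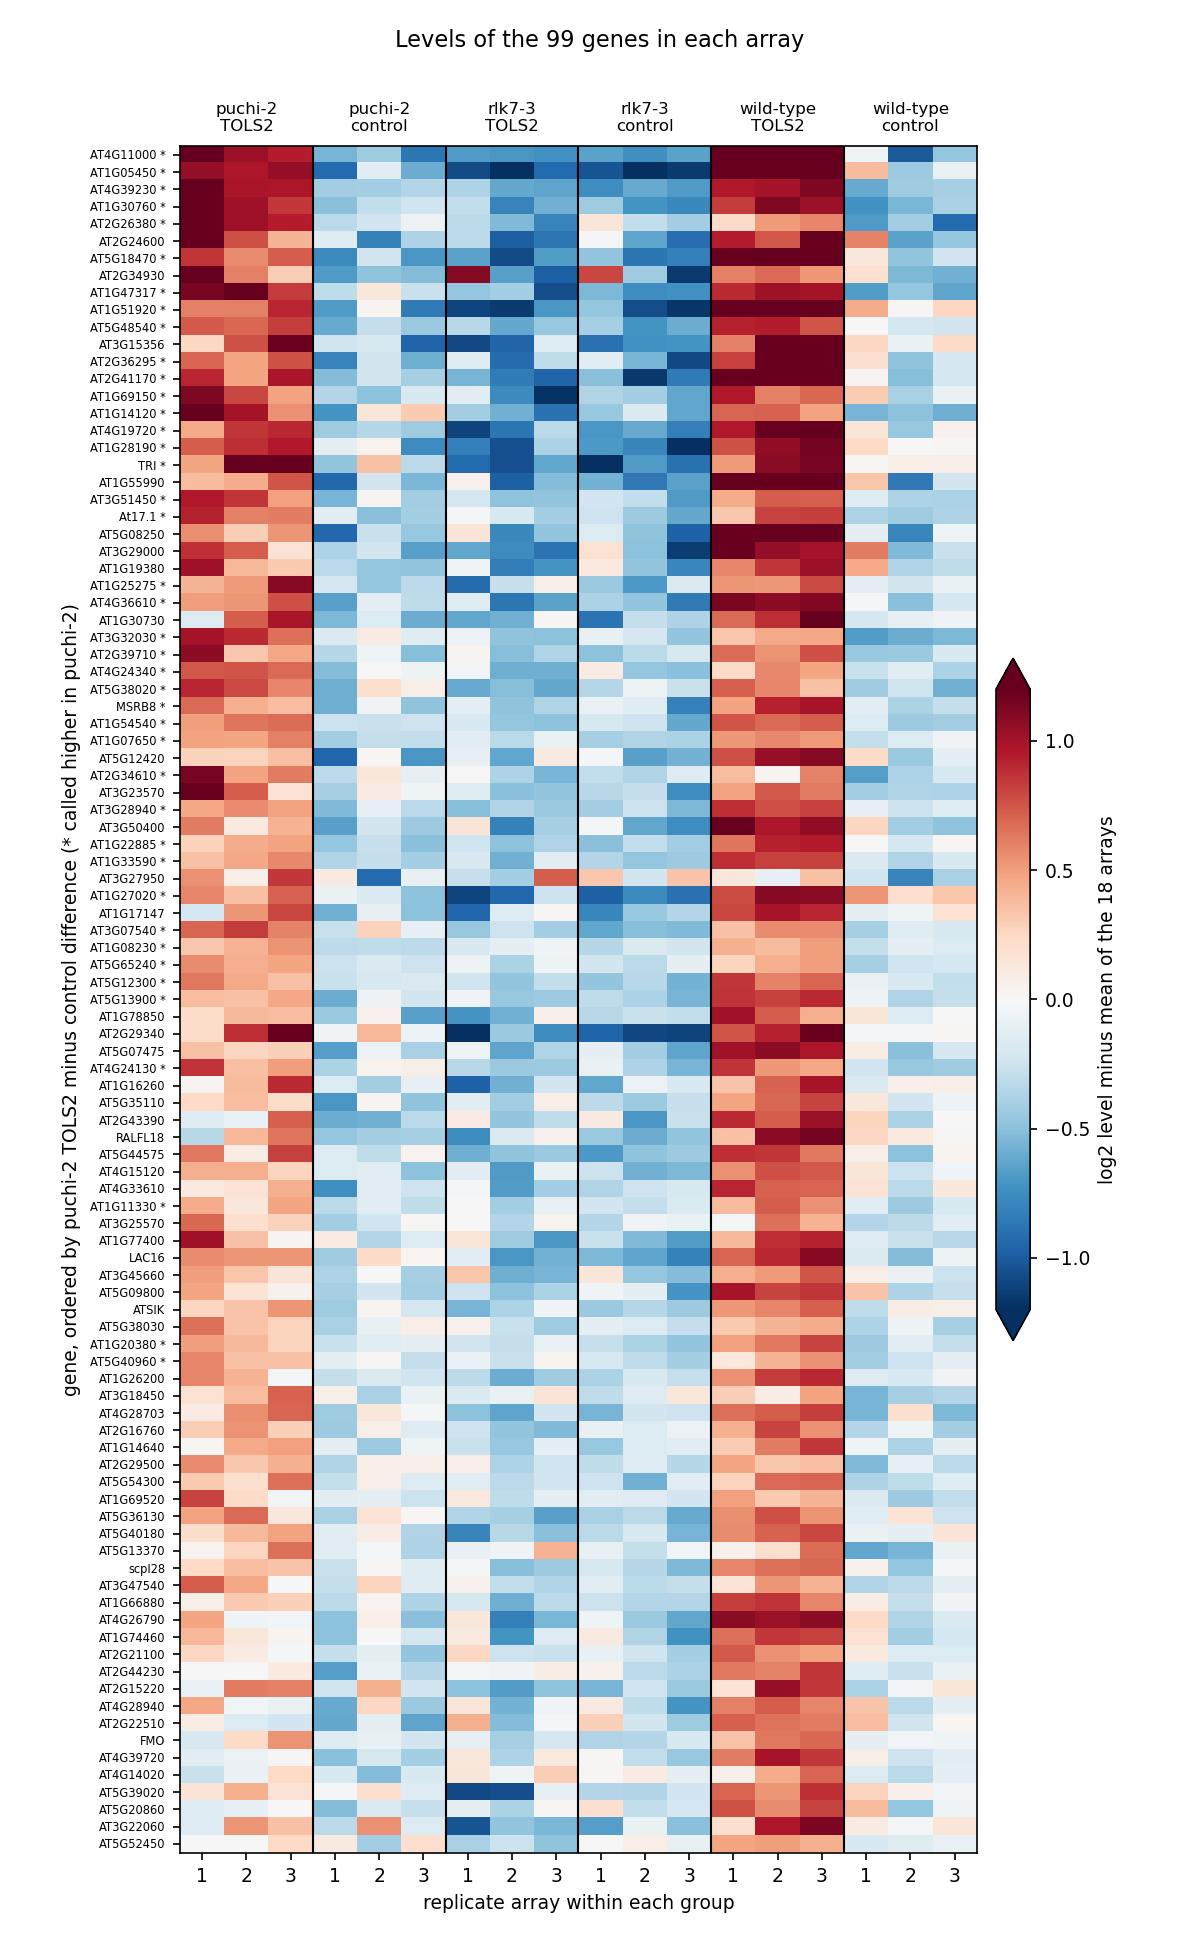
Log2 level of each of the 99 genes (rows) on each of the 18 arrays (columns, in groups of 3), as the deviation from the gene's mean over all arrays; colours are clipped at 1.2 either way. Rows run from the largest to the smallest puchi-2 difference, and the 41 genes called higher in puchi-2 carry a star. Both TOLS2 blocks of puchi-2 and wild type are mostly red, whereas both rlk7-3 blocks look alike.

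The clearest single response in puchi-2 was that of AT4G39230, an NmrA-like reductase gene of the isoflavone reductase type. Its levels were 10.01, 9.76 and 9.75 on puchi-2 TOLS2 arrays, against 8.36, 8.38 and 8.43 on puchi-2 control arrays. The groups were far apart, and the rise was 2.73-fold (log2 difference 1.45, SE 0.09, n = 3, limma adjusted p = 3.34e-07). In wild type it had 9.74, 9.78 and 9.90 with TOLS2 and 8.17, 8.36 and 8.38 in control, nearly the same values as in puchi-2. On rlk7-3 arrays it had 8.41, 8.17 and 8.15 with TOLS2 and 8.03, 8.17 and 8.10 in control.

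The largest puchi-2 rise belonged to AT4G11000, which encodes an ankyrin repeat protein. Its levels were 6.23, 6.03 and 5.94 with TOLS2 and 4.45, 4.58 and 4.13 in puchi-2 control, a 3.20-fold difference (1.68, SE 0.18, limma adjusted p = 0.000124). Its mean was 5.00 over all 18 arrays and 4.40 over the 9 controls, so its TOLS2 arrays helped it past the minimum level. It also had the largest wild-type difference of the set (1.94), with control values that spread between 3.99 and 4.95. AT1G05450, a gene of the lipid transfer protein family, came next on both counts. It had 7.20, 7.12 and 7.20 with TOLS2 and 5.22, 6.02 and 5.55 in puchi-2 control (1.58, SE 0.21, limma adjusted p = 0.000875). Its wild-type TOLS2 arrays reached 8.14, 8.15 and 7.78, all above every puchi-2 array.

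The other genes called from the 6 puchi-2 arrays alone were AT1G30760, AT5G48540, AT4G19720, AT1G54540, AT1G07650, AT1G22885, AT1G33590, AT1G08230 and AT5G65240, with differences between 1.45 and 0.72. They span a berberine bridge enzyme-like protein, a cysteine-rich secreted protein, a glycosyl hydrolase of family 18, a hydroxyproline-rich glycoprotein, leucine-rich repeat proteins and an amino acid transporter, while AT1G22885 was given no family here. All 9 also passed in the fit on all 18 arrays, and AT5G48540, AT4G19720, AT1G54540, AT1G22885 and AT5G65240 are named because of this count, after their values were seen. AT5G48540 had 7.82, 7.78 and 7.92 on puchi-2 TOLS2 arrays and 6.48, 6.80 and 6.65 on puchi-2 control arrays, a 2.29-fold rise (limma adjusted p = 2.05e-05).

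**Figure D2:**
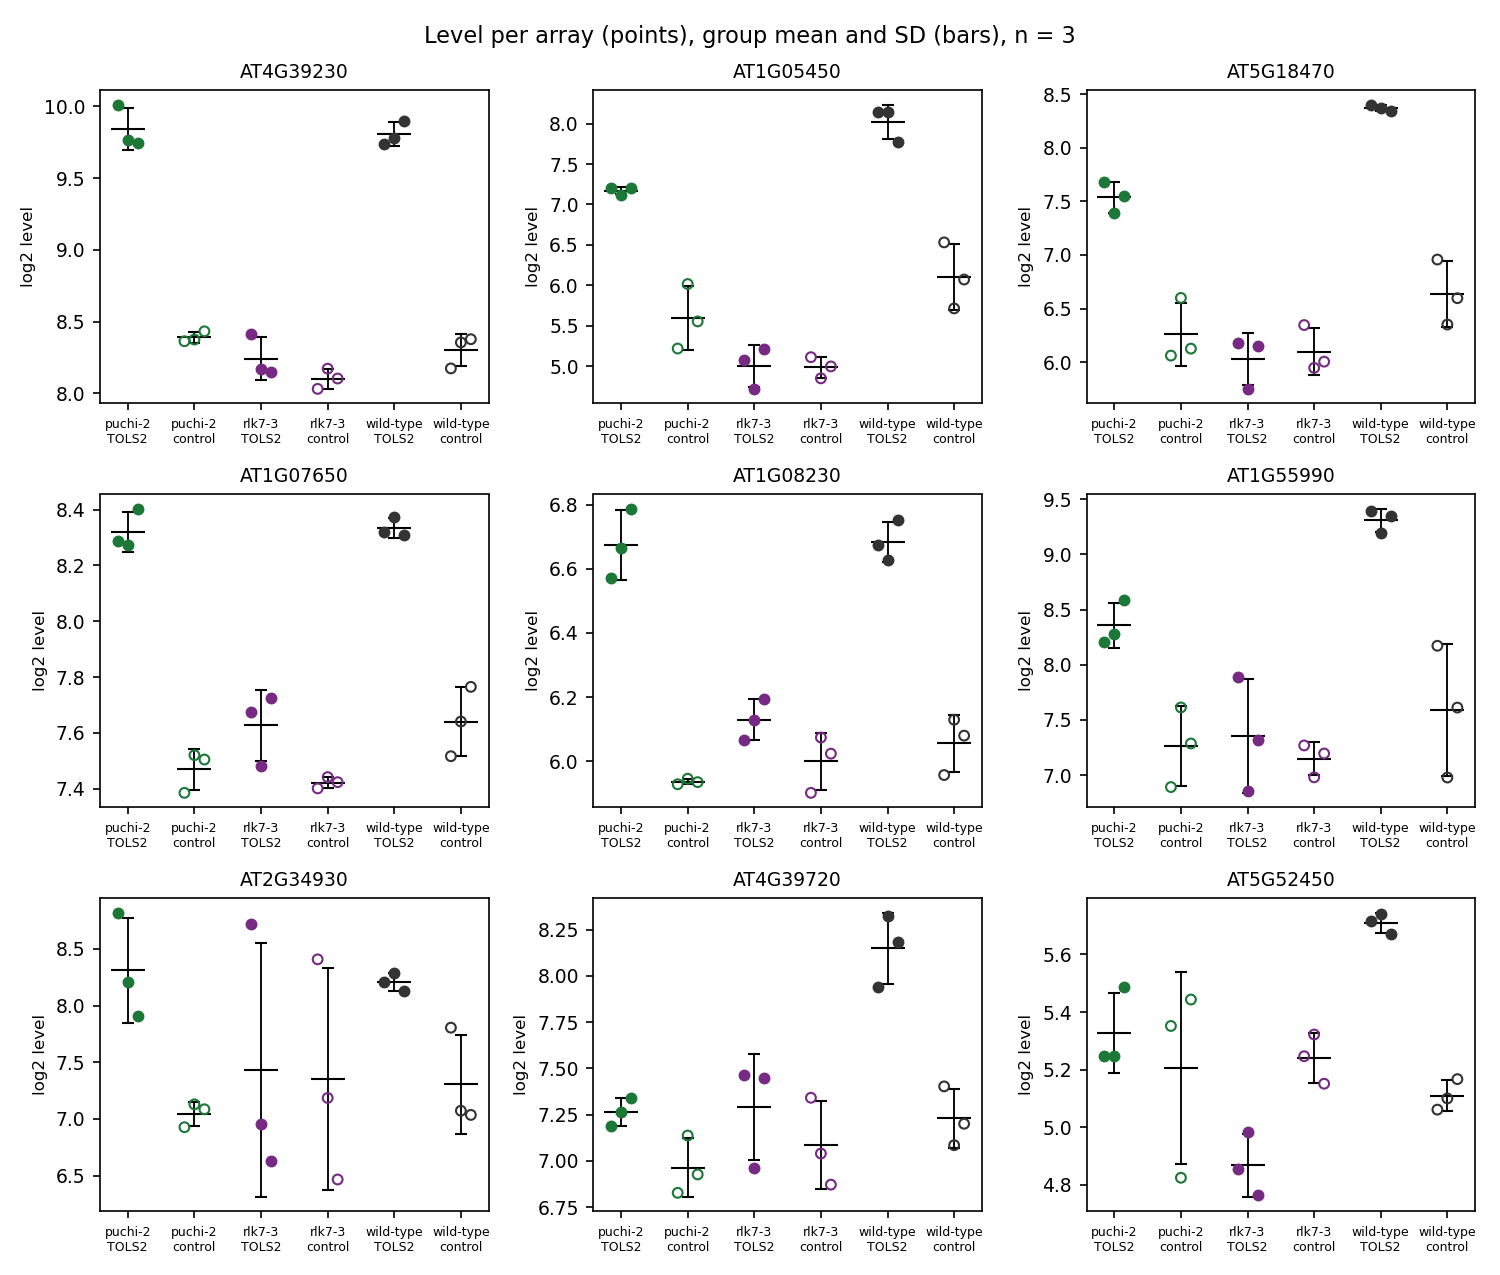
Log2 level on each array for 9 genes (points; filled for TOLS2, open for control), with the mean and SD of each group (n = 3). AT4G39230, AT1G07650 and AT1G08230 reach about the same level with TOLS2 in puchi-2 as in wild type, AT1G05450, AT5G18470 and AT1G55990 a lower one, and for AT5G52450 the puchi-2 groups overlap.

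The annotation tables give a symbol beyond the locus code for 8 of the 99 genes. For the others, the protein family is general knowledge of the Arabidopsis gene catalogue, stated as background. In all, 73 genes were placed in a family and 26 were not. These placements were made after the genes were known, and the counts below describe the groups without testing them.

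The largest group with an assigned family, called the surface group here, held 15 genes. They encode receptor-like and other protein kinases, leucine-rich repeat proteins, lectins and cysteine-rich secreted proteins. Many, but not all, proteins of these families sense peptides, wall fragments or microbial sugars at the cell surface. Limma called 7 of them higher in puchi-2 and 0 lower, and the median difference was 0.72. The leucine-rich repeat kinase gene AT1G07650 had 8.29, 8.27 and 8.40 with TOLS2 and 7.39, 7.52 and 7.50 in puchi-2 control. The replicates lay close together and the groups stood well apart (0.85, SE 0.08, limma adjusted p = 2.33e-05). AT5G18470, a mannose-binding lectin gene, rose 2.42-fold in puchi-2, with 7.68, 7.39 and 7.55 against 6.06, 6.60 and 6.13 (1.28, SE 0.17, limma adjusted p = 0.00101). The leucine-rich repeat gene AT2G26380 rose by 1.40 (limma adjusted p = 0.00129) and AT1G33590 by 0.82 (limma adjusted p = 0.000514).

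Other members of the surface group were less clear. AT1G11330, an S-locus lectin kinase gene, had a control mean of 4.86, under the minimum level, and was called (0.60, limma adjusted p = 0.0241), but not without puchi-2 TOLS2 replicate 1 (0.0808) or 3 (0.0989), nor without control replicate 1 (0.101) or 3 (0.0909). The leucine-rich repeat gene AT2G34930 had a large mean difference of 1.27 that was not called (limma adjusted p = 0.273). Its replicates disagreed in rlk7-3, with 8.72, 6.96 and 6.63 on TOLS2 arrays and 8.41, 7.18 and 6.47 on control arrays, where both replicate 1 arrays are high. ATSIK, a protein kinase gene, had a difference of 0.58 (limma adjusted p = 0.0625), which passed without control replicate 2 (0.044). For AT3G22060, a cysteine-rich secreted protein gene, the groups overlapped, with 8.64, 9.32 and 9.14 with TOLS2 and 8.47, 9.33 and 8.63 in control. AT5G39020, a malectin-domain receptor-like kinase gene, overlapped as well (0.24, limma adjusted p = 0.711).

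Signalling and regulatory proteins outside the surface group made up 13 genes, of which 5 were called higher and 0 lower (median difference 0.76). Beside AT4G11000, the F-box gene AT2G41170, whose product would select targets for ubiquitination, rose by 1.17 (SE 0.18, limma adjusted p = 0.003). AT3G28940, of the avirulence-induced AIG2-like family, had 9.13, 9.23 and 9.15 with TOLS2 and 8.14, 8.57 and 8.34 in puchi-2 control (0.82, limma adjusted p = 0.000359). AT5G12300, which encodes a C2 domain protein of the kind that binds calcium and membranes, rose by 0.69 (limma adjusted p = 0.00136). A second ankyrin repeat gene, AT2G24600, had a difference of 1.33 that was not called (limma adjusted p = 0.068), with TOLS2 arrays between 5.79 and 6.88. Its groups did not overlap.

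None of the 3 genes for VQ motif proteins was called by limma in puchi-2 in the fit without replicate numbers. Such proteins are partners of WRKY transcription factors. AT4G39720 had 7.19, 7.26 and 7.34 with TOLS2 and 6.83, 7.14 and 6.93 in puchi-2 control (0.30, limma adjusted p = 0.442), beside 7.94, 8.32 and 8.18 with TOLS2 in wild type. AT1G17147 differed by 0.76 (limma adjusted p = 0.177) and passed without TOLS2 replicate 1 (0.0482). The single RALF-like peptide gene, RALFL18, had 5.24, 5.97 and 6.21 with TOLS2 and 5.11, 5.16 and 5.17 in puchi-2 control (0.66, limma adjusted p = 0.248). RALF peptides raise the pH outside the cell. Over the 18 probe sets named for this family the puchi-2 median was -0.06, with 0 called either way, and RALFL18 was the highest of them. The GH3 family gene AT5G13370, of a family whose enzymes link amino acids to hormones, differed by 0.49 (limma adjusted p = 0.299).

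Oxidoreductases had the highest median puchi-2 difference of the groups (0.91), with 5 of 12 genes called higher and 0 lower. Their median wild-type difference, which the choice used, was also the highest (1.11). Beside AT4G39230, the berberine bridge enzyme-like gene AT1G30760, of a family of secreted oxidases, had 8.49, 8.07 and 7.90 with TOLS2 and 6.54, 6.75 and 6.81 in puchi-2 control (1.45, SE 0.16, limma adjusted p = 0.000176). MSRB8, which encodes a methionine sulfoxide reductase that repairs oxidised proteins, rose by 0.87 (limma adjusted p = 0.0409). This call ended without any 1 puchi-2 array except control replicate 2 (adjusted p from 0.0777 to 0.176). Of the 6 probe sets named MSRB, it was the only one called higher, with a family median of -0.02.

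The cupredoxin gene AT5G07475, for a small copper protein, had 9.23, 9.14 and 9.17 with TOLS2 and 8.21, 8.81 and 8.49 in puchi-2 control, yet was not called (0.67, limma adjusted p = 0.082). LAC16, a laccase gene of the copper oxidases that couple lignin units, had 8.83, 8.78 and 8.79 against 7.83, 8.48 and 8.28 (0.60, limma adjusted p = 0.115). In both, the groups did not overlap and the control arrays were the more variable ones. Of 2 cytochrome P450 genes, AT5G08250 differed by 1.01 (limma adjusted p = 0.0663) and AT5G36130, the brightest gene of the set with a mean of 10.97, by 0.50 (limma adjusted p = 0.16), with overlapping groups. The flavin monooxygenase gene FMO differed by 0.35 (limma adjusted p = 0.314), and passed without TOLS2 replicate 1 (0.0439).

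Of 8 lipid-related genes, 2 were called higher and 0 lower (median 0.74), and both encode lipid transfer proteins. The brighter of them, AT5G13900, had 10.74, 10.73 and 10.84 with TOLS2 and 9.78, 10.31 and 10.16 in puchi-2 control (0.69, limma adjusted p = 0.0159). That call ended without TOLS2 replicate 3 (0.0634) or control replicate 1 (0.0792). None of the 4 GDSL lipase genes was called in the fit without replicate numbers, although all had higher means with TOLS2, by 0.42 to 0.82. For AT4G26790, one of these, the puchi-2 groups overlapped, with 6.71, 6.17 and 6.20 against 5.73, 6.31 and 5.72. Its wild-type groups stood apart, with 7.31, 7.27 and 7.30 on TOLS2 arrays and 6.47, 5.87 and 6.06 on control arrays. The acyltransferase gene AT5G12420, of the wax ester synthase type, differed by 0.85 (limma adjusted p = 0.118) and passed without control replicate 2 (0.0341).

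Wall and extracellular proteins had the lowest median puchi-2 difference (0.45), with 2 of 9 genes called higher and 0 lower. Their median wild-type difference was 0.77. AT4G19720, of glycosyl hydrolase family 18, which includes chitinases, had 8.16, 8.56 and 8.61 with TOLS2 and 7.28, 7.36 and 7.27 in puchi-2 control (1.14, limma adjusted p = 0.00697). The glycine-rich protein gene AT1G55990 had 8.20, 8.28 and 8.59 against 6.89, 7.61 and 7.29 (1.09, SE 0.28, limma adjusted p = 0.0668). It was not called, and its wild-type TOLS2 arrays (9.39, 9.19 and 9.34) all lay higher. A second glycine-rich protein gene, AT4G33610, had 8.34, 8.40 and 8.65 against 7.49, 8.10 and 7.98 in puchi-2, groups that did not overlap (0.61, limma adjusted p = 0.12). The dirigent gene AT2G21100, of proteins that guide lignan coupling, differed by 0.40 (limma adjusted p = 0.224). AT5G20860, a pectin methylesterase gene, differed by 0.24 (limma adjusted p = 0.665), the hydroxyproline-rich glycoprotein gene AT2G22510 by 0.35 (adjusted p = 0.602), the basic secretory protein gene AT2G15220 by 0.40 (adjusted p = 0.56) and the chitinase gene AT3G47540 by 0.45 (adjusted p = 0.284). None of these 4 was called, and the last 3 overlapped between the groups.

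Among 12 other enzymes, 7 were called higher and 0 lower (median 0.85). The alpha/beta hydrolase gene AT4G36610 had 8.78, 8.81 and 9.05 with TOLS2 and 7.63, 8.17 and 7.98 in puchi-2 control (0.95, limma adjusted p = 0.0152), and its call ended without TOLS2 replicate 3 (0.07) or control replicate 1 (0.0879). A second hydrolase gene, AT3G23570, had a difference of 0.83 (limma adjusted p = 0.068) that passed without TOLS2 replicate 3 (0.00795). The phosphorylase superfamily gene AT4G24340 had 9.06, 9.07 and 9.0 with TOLS2 and 7.80, 8.32 and 8.26 in puchi-2 control (0.92, limma adjusted p = 0.0176). Without TOLS2 replicate 1 (0.0554) or 2 (0.0572) or control replicate 1 (0.0945) it was not called. Its relative AT4G28940 overlapped between the groups (0.38, limma adjusted p = 0.616).

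The serine carboxypeptidase-like gene scpl28 was bright, with 11.08, 11.22 and 11.19 on puchi-2 TOLS2 arrays and 10.57, 10.86 and 10.70 on puchi-2 control arrays (0.45, limma adjusted p = 0.151). It had the highest difference among the 33 probe sets named for this family, whose median was -0.04 and of which 0 were called higher and 1 lower. Of 4 transporter genes, 1 was called. This was AT1G08230, of the amino acid transporter family, with 6.57, 6.66 and 6.79 against 5.93, 5.95 and 5.94 (0.74, SE 0.07, limma adjusted p = 5.07e-05). AT3G45660, of the major facilitator superfamily, differed by 0.59 (limma adjusted p = 0.266).

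Neither of the MATE transporter genes, of a family that exports small organic molecules, was called. AT5G38030 differed by 0.56 (limma adjusted p = 0.0701). AT5G52450 had the smallest difference of all 99 genes, with 5.25, 5.25 and 5.49 on puchi-2 TOLS2 arrays and 5.35, 4.82 and 5.44 on puchi-2 control arrays (0.12, limma adjusted p = 0.786). In wild type its groups stood apart, with 5.72, 5.74 and 5.67 against 5.06, 5.10 and 5.17, and in rlk7-3 they stood apart the other way, with 4.85, 4.98 and 4.76 against 5.25, 5.32 and 5.15.

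The 26 genes without a family had a median puchi-2 difference of 0.66, with 12 called higher and 0 lower. AT1G47317 had 7.83, 7.96 and 7.53 with TOLS2 and 6.39, 6.83 and 6.42 in puchi-2 control (1.22, limma adjusted p = 0.000875). AT1G51920 rose by 1.21 (limma adjusted p = 0.0103), a call that ended without control replicate 1 (0.0618) or 3 (0.0554). At17.1 rose by 1.06 (limma adjusted p = 0.00142), whereas AT2G44230 (0.40, limma adjusted p = 0.191) and AT4G14020 (0.26, limma adjusted p = 0.557) were not called.

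**Figure D3:**
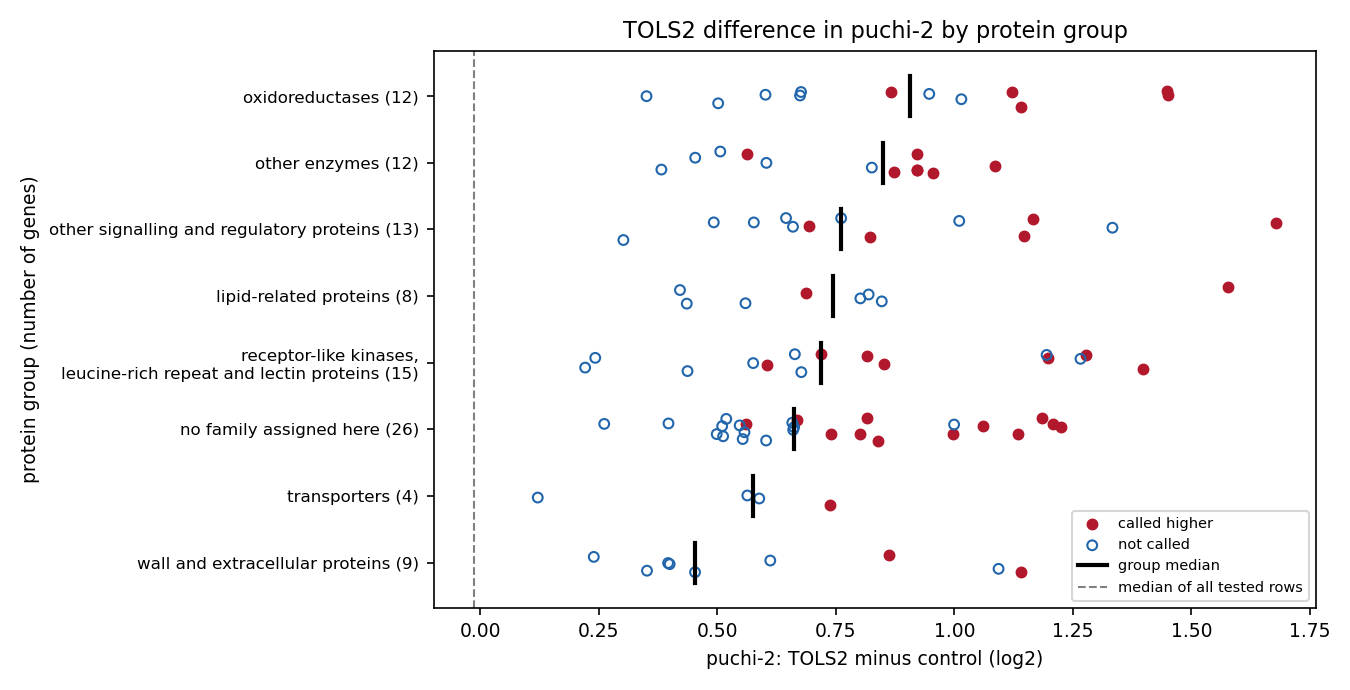
Puchi-2 TOLS2 minus control difference (log2, horizontal axis) of each of the 99 genes, by protein group (vertical axis, with the number of genes). Filled points are genes called higher, open points genes not called, and the black bar is the group median; the dashed line is the median of all tested probe sets. Every point lies right of the dashed line, and group medians run from 0.45 for wall and extracellular proteins to 0.91 for oxidoreductases.

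Members of the set lie close together on the chromosome in 3 places, by the order of protein-coding genes in the RefSeq annotation. TRI, which encodes a tropinone reductase-type short-chain dehydrogenase, and AT2G29340, of the same family, are direct neighbours. TRI had 8.44, 9.16 and 9.21 on puchi-2 TOLS2 arrays and 7.48, 8.31 and 7.65 on puchi-2 control arrays (1.12, limma adjusted p = 0.0301), and AT2G29340 had 6.36, 7.02 and 7.35 against 6.10, 6.53 and 6.07 (0.68, limma adjusted p = 0.221). The groups overlapped for AT2G29340 and not for TRI, and in both genes replicate 1 was the lowest TOLS2 array and replicate 2 the highest control array. The call of TRI ended without TOLS2 replicate 2 (0.105) or 3 (0.12) or control replicate 1 (0.144) or 3 (0.115).

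The methyltransferase gene AT5G38020 and the MATE transporter gene AT5G38030, of different families, are also direct neighbours. AT5G38020 had 9.09, 8.98 and 8.77 against 7.59, 8.39 and 8.25 in puchi-2 (0.87, limma adjusted p = 0.0156), a call that ended without TOLS2 replicate 1 (0.064) or 2 (0.0529). The berberine bridge enzyme-like genes AT1G30730 and AT1G30760 have 4 genes between them. AT1G30730 had 6.27, 7.16 and 7.41 with TOLS2 and 5.89, 6.27 and 5.84 in puchi-2 control (0.95, limma adjusted p = 0.0961), and passed without TOLS2 replicate 1 (0.0119). TRI, AT2G29340, AT5G38020 and AT1G30730 were chosen for their position after their values were seen, as were MSRB8, LAC16, RALFL18 and AT4G26790 for their names or families.

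Set beside wild type, the puchi-2 difference was smaller for 78 of the 99 genes and larger for 21. The median of the puchi-2 difference as a share of the wild-type difference was 78.6%. It was at least 80% for 49 genes and under 50% for 9. The genes were chosen for a wild-type difference of at least 0.6 with separated arrays, which by itself favours high wild-type differences, so no test was made. Across the 99 genes the wild-type and puchi-2 differences had a Pearson correlation of 0.71, a description over genes measured on the same arrays within a narrow range of wild-type values.

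The 9 genes under 50% were AT5G52450, AT5G20860, AT3G22060, AT4G39720, AT4G26790, AT5G39020, AT4G14020, AT1G74460 and AT2G44230, from 20.1% upward. None of them was called by limma in puchi-2, and their roles differ, from a pectin methylesterase and 2 GDSL lipases to a receptor-like kinase. For the GDSL lipase gene AT1G74460, puchi-2 levels were 9.84, 9.57 and 9.47 with TOLS2 and 8.95, 9.44 and 9.23 in control, and the groups did not overlap.

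**Figure D4:**
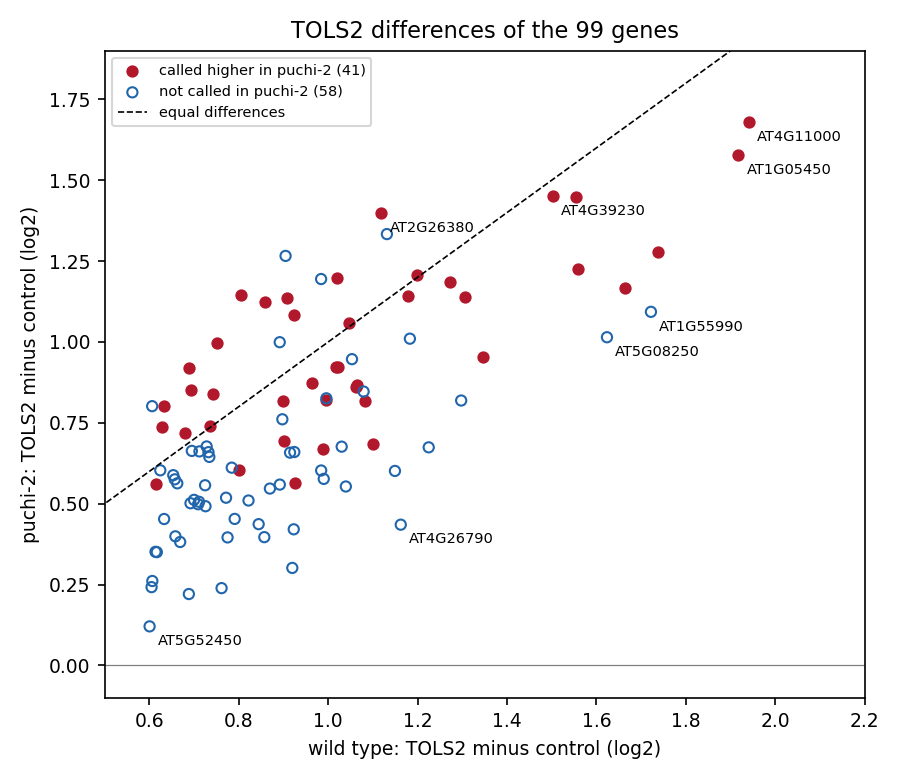
TOLS2 minus control difference in puchi-2 (vertical axis, log2) against that in wild type (horizontal axis, log2) for the 99 genes. Filled points were called higher in puchi-2 and open points were not; the dashed line marks equal differences. Most points (78) lie below the line, and none lies below 0.

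For 41 of the 99 genes all 3 puchi-2 TOLS2 arrays lay below all 3 wild-type TOLS2 arrays, where 5.74% of all tested probe sets did so, and the median of the level differences was -0.29, beside 0.02 for all tested probe sets. The choice of genes favours high wild-type TOLS2 values. For 4 genes the order was the opposite. The share of all tested probe sets with that order was not counted, so these genes are described only. AT2G26380 averaged 7.15 on puchi-2 TOLS2 arrays and 6.40 on wild-type TOLS2 arrays, the terpene synthase gene AT3G32030 averaged 8.01 and 7.58, AT4G24340 averaged 9.05 and 8.75, and AT3G07540 averaged 5.87 and 5.65. These 4 were named after their values were seen.

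Among control roots without the peptide, 63 of the 99 genes had a lower mean in puchi-2 than in wild type and 36 a higher one. Over all tested probe sets, 51.2% were lower. The median level difference was -0.11, beside -0.003 for all tested probe sets. The median level of the 99 genes was 6.52, 6.89 and 6.65 on the puchi-2 control arrays, against 7.07, 6.58 and 6.75 on the wild-type control arrays, the first of which was the highest. Without that array, wild-type control replicate 1, the median difference was -0.02, and without puchi-2 control replicate 1 it was -0.05. It was -0.19 without puchi-2 control replicate 2 and -0.17 without wild-type control replicate 2. For 6 genes all puchi-2 control arrays lay below all wild-type controls, where 6.73% of all tested probe sets did so, a share near that of the 99 genes.

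Levels in rlk7-3 control roots were lower than in wild-type controls for 78 of the 99 genes. Over all tested probe sets, 55.1% were lower. The median level difference between rlk7-3 control and wild-type control was -0.21, beside -0.02 for all tested probe sets. For 28 genes all 3 rlk7-3 controls lay below all 3 wild-type controls, where 9.46% of all tested probe sets did so. For 5 genes all lay above, and the share of all tested probe sets with that order was not counted. Without wild-type control replicate 1 the median was -0.12 with 76 genes lower, where 58.3% of all tested probe sets were lower. Without rlk7-3 control replicate 3 it was -0.13 with 70 lower, where 59.3% of all tested probe sets were. These arrays chose the genes, so no test was made and the part of the choice in this order was not tested.

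The lipid transfer protein gene AT1G05450 was among those with a wide gap. It was at 5.11, 4.85 and 5.00 on rlk7-3 control arrays, against 6.53, 5.71 and 6.07 on wild-type control arrays. AT2G29340 was similar, at 5.18, 5.04 and 5.02 on rlk7-3 control arrays and 6.11, 6.12 and 6.16 on wild-type control arrays. In both genes the groups did not overlap, and for AT1G05450 the rlk7-3 TOLS2 arrays (5.08, 4.72 and 5.21) stayed at the level of their controls.

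In rlk7-3 with TOLS2 the differences ran from -0.43 to 0.23 with a median of 0.05, beside 0.06 for all tested probe sets. The upper end is the limit of the choice. Of the 99 genes, 63 had a higher and the others a lower mean. For 2 genes all TOLS2 arrays lay above all controls (10.6% of all tested probe sets), and for 3 all lay below (1.6%). In wild type the differences ran from 0.60 to 1.94 with a median of 0.90. Separated wild-type arrays, which the choice asked of all 99 genes, were found for 6.78% of all tested probe sets. These values follow from the choice. In puchi-2, the TOLS2 mean was at least 2-fold above the control mean for 24 genes, of which 18 were called by limma, where 0.458% of all tested probe sets lay that far above.

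Genes lay close to either side of every limit except the upper wild-type one. The lowest wild-type differences inside were those of AT5G52450, AT5G39020 and the GDSL lipase gene AT3G27950 (0.60, 0.60 and 0.61), and just outside came AT3G49630, AT1G78830 and AT4G33180 (0.59, 0.59 and 0.58). At the upper limit AT4G11000, AT1G05450 and AT5G18470 (1.94, 1.92 and 1.74) were inside, while AT1G65500 and AT2G43620 (4.24 and 4.48) were the nearest outside, with none between. Near the rlk7-3 limit, AT5G13370, At17.1 and AT2G44230 (0.23 each) were inside and AT4G01870, AT1G33100 and AT3G15518 (0.26 each) outside. The lowest mean levels inside were those of AT4G11000, AT3G47540 and AT1G11330 (5.00, 5.07 and 5.11), and the highest outside those of AT3G59480, AT5G44580 and AT3G28580 (4.99, 4.78 and 4.76).

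The minimum level left out 37 probe sets that met every other limit. Mean levels of the genes ran from 5.00 to 10.97 with a median of 6.96.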

How the data were processed

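Root tip RNA was measured on 18 single-colour arrays. The deposited values are log2 levels made by the authors with RMA, per the submitters' processing notes; no software version, probe set definition or genome build is given in the labels or headers used here. They were used as deposited. Because RMA makes the distributions of the arrays alike, it can hide a shift common to most transcripts. The array medians of the deposited values still ran from 6.19 to 6.30. Rows with 1 gene (16722), several (759) or none (20927) were set by the platform annotation, and names were updated with RefSeq (assembly TAIR10.1), which matched 98 of the 99 genes.

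Testing used limma 3.58.1 under R 4.3.3 (6 group means, 18 arrays, 12 residual degrees of freedom), adjusted over 17481 rows, and the code was tested on simulated data. SE is limma's. In the fit on 18 arrays, a p-value sets a difference against the spread within groups, shared by all 6 groups. Limma draws this spread towards that of the other tested rows. The number of arrays limits the precision.

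Samples were grouped by title. The genes and lists were chosen with earlier results of these data known. Named are the 10 largest wild-type and puchi-2 differences, the 8 smallest puchi-2 differences, up to 4 of the highest mean level per protein group, and genes beside a limit of the choice. The annotation words fixed for function groups matched 7 genes, so protein families were used. Promoter motifs were not analysed here.

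Same-numbered puchi-2 TOLS2 and control arrays deviated together with correlations of 0.13, 0.10 and 0.03, so the numbers were not taken as pairs. Over all pairs of groups, the same-number correlations ran from -0.07 to 0.35. Results with replicate number as a block are given below.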

Additional observations from a re-analysis of the deposited data

How the results depend on the processing

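The count of 41 genes called higher in puchi-2 (0.898% of all tested rows) was 64 with array weights (1.71%) and 12 from the 6 puchi-2 arrays alone (0.212%), where fewer arrays estimate the spread. It ran from 7 to 39 when replicates were left out, with 24 (0.44%) without puchi-2 control replicate 1, and with 21 (0.418%), 17 (0.223%) and 7 (0.154%) when every group lost replicate 1, 2 or 3, settings that leave 2 arrays a group. It was 46 after a renewed quantile normalization (1.1%) or centring (1.12%), 50 (1.33%) with a robust prior that follows intensity, 56 (2.15%) among rows with a mean of at least 5 and 36 (0.682%) over all rows. Taking replicate number as a block gave 56 (1.43%), all 41 among them. The VQ genes AT1G17147 (limma adjusted p = 0.0348) and AT4G15120 (0.0421) and the GDSL lipase gene AT3G27950 (0.0386) also passed with the block. The remaining VQ gene, AT4G39720 (0.419), and the other GDSL lipase genes did not. AT4G15120 was named after its values were seen. Each of the 6 puchi-2 arrays correlated best with its own number, a hint from the data only. The count called lower was 0 in every one of these settings. Genes with separated puchi-2 arrays numbered 82 to 84 in the settings that kept all arrays. With replicates left out they numbered 83 to 95, but fewer arrays separate more easily, so these counts are not alike. The share of all tested rows with separated arrays was counted in the main setting only (7.38%). The median difference ran from 0.66 to 0.82. With replicates left out, the difference of AT5G52450 ran from -0.070 without puchi-2 control replicate 2 to 0.24 without control replicate 3, and it was -0.031 when every group lost replicate 2; the cause was not tested. The choice gave between 75 genes (mean of at least 6) and 116 (at least 4), and 107 after a renewed quantile normalization, 98 of them among the 99. Omissions of single arrays for the comparisons of genotypes were added after the data were seen.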
